A study of Mus musculus with 18 samples.

Results

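The 92 genes described here encode the proteins of the cytosolic ribosome and their close relatives. They were taken by symbol from a table of 28030 mouse genes: symbols that begin with Rpl or Rps and a digit, with Rpsa, Rplp0, Rplp1 and Rplp2, but without the Rps6k kinases and without symbols that hold -ps. Such -ps symbols are used to name pseudogenes and are called so here. The annotation lists some of them, such as Rps12-ps3 and Rpl10-ps3, as protein-coding. Of the 92, 77 are core proteins of the ribosome, with 43 in the large subunit, 3 in its stalk and 31 in the small subunit. A further 9 are paralogs of a core protein (such as Rpl22l1 and Rps27l), 5 are other copies (Rps3a2, Rps3a3, Rpl6l, Rps12l1 and Rpl37rt), and Rps19bp1 encodes a protein that binds RPS19 and is not a subunit. Messenger RNA was measured by RNA sequencing in hepatocytes, the main cells of the liver, from wild-type C57BL/6J males aged 12 weeks on normal chow. The cells came from the pericentral side (PC, around the central vein where blood leaves the lobule) or the periportal side (PP, where blood enters). Perfusion with digitonin destroyed the hepatocytes of the unwanted zone, and those of the other were collected. All mice had been trained for 3 days to 16 h without food and 8 h with food. In all groups, food was given back for 4 h, with water that held 20% sucrose. The fed mice (0 h) were killed at clock hour 13. The others had been without food for 8 h (killed at clock hour 21) or 24 h (clock hour 13). The 6 groups of zone and state held 3 libraries each.

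The cytosolic ribosome is built from ribosomal RNA and about as many proteins as there are core genes here, each needed in nearly the same amount, so the genes are known for high and coordinated expression. Their mRNAs begin with a run of pyrimidines, the terminal oligopyrimidine (TOP) element, through which the nutrient-sensing kinase complex mTORC1 controls how much of each mRNA is translated. Making ribosomes is costly, and in the liver both feeding and hormones act on it. The measurements below are of mRNA, not of protein or translation.

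The libraries held 1.84e+07 to 2.64e+07 estimated counts each, and the member genes took 0.977% to 1.47% of them. Of the 92 members, 86 had enough counts to be tested. The other 6, Rpl10l, Rpl39l, Rpl3l, Rpl6l, Rps12l1 and Rps3a2, had between 0 and 26 counts summed over all libraries, and counts of members below are out of the 86 tested. The 4 pericentral marker genes (Cyp2e1, Cyp1a2, Oat and Glul) summed to 9305 to 18314 CPM (counts scaled to library size, with TMM factors) in PC libraries and to 420.0 to 2044 in PP libraries. The 4 periportal markers (Cyp2f2, Hal, Gls2 and Sds) summed to 278 to 1793 in PC and 3134 to 5413 in PP, so every library stood on the side of its label. The PC library of 24 h, replicate 2, had the 1793, against at most 869 in the other 8 PC libraries. The labels do not say whether replicates were separate mice, so p-values measure the spread between these libraries. In bulk RNA, fewer cells of a type and less RNA per cell cannot be told apart.

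The 50 bases from 30 before to 20 after the annotated start of transcription are printed for 6 members that have a pyrimidine run there. The mRNA of all 6 rose in PP hepatocytes after 24 h without food. Capitals mark the pyrimidine run, a C followed by at least 7 bases that are C or T. Where RefSeq (GRCm38.p6) gives several starts for a gene, a start with such a run is shown if there is any.
Rps27 chr3:90213629-90213678 minus strand: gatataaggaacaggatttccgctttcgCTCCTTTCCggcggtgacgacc
Rpl38 chr11:114668550-114668599 plus strand: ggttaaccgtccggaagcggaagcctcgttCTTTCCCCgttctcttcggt
Rpl35a chr16:33056452-33056501 plus strand: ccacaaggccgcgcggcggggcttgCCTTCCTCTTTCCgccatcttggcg
Rps18 chr17:33955646-33955695 minus strand: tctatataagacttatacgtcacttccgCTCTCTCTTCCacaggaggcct
Rps10 chr17:27635225-27635274 minus strand: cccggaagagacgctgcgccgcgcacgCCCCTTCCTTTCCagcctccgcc
Rps6 chr4:86857348-86857397 minus strand: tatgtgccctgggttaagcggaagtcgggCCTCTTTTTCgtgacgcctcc
The same window is printed for Rps19 and Rpl22, which also rose but have no such run at any annotated start, and for Rpl7l1, a paralog that fell.
Rps19 chr7:24884562-24884611 plus strand: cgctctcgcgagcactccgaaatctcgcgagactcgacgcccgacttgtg
Rpl22 chr4:152325696-152325745 plus strand: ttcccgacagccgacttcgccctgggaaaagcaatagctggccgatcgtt
Rpl7l1 chr17:46782637-46782686 minus strand: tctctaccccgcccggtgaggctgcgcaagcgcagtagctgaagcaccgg
Promoter entries were found for 57 of the 77 core genes. Of these, 29 (50.9%) had such a run of 8 or more bases in this window, on the strand that reads as the mRNA. The share was 18.2% of all 27025 genes with an entry and 19.7% of the 9621 that were also tested. A run wholly before the start also counted, as in Rpl34, where it begins at -13 from the start and is 8 bases long. Counted by entry, the run was in 31 of 67 core starts (46.3%) and in 15.9% of all 32851. The run was present in 24 of the 44 core genes called higher in PP at 24 h (54.5%) and in 5 of the 13 not called (38.5%). The letters CCGGAAG, on either strand of the 300 bases around the start, were in 24 of the 57 (42.1%), against 9.93% of all genes and 20.0% of those tested. For CACGTG, which reads the same on both strands, the count was 6 of 57 (10.5%), against 8.09% of all genes and 11.5% of those tested. A match or its absence describes these letters only.

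Core ribosomal protein mRNAs were abundant and mostly similar in level. Per kilobase of transcript, their mean over the 18 libraries had a median of 194 CPM per kb, and the middle 50% of genes lay between 141 and 251. Rps2, a protein near the mRNA entry site of the small subunit, was at the top with 625 CPM per kb, followed by Rplp1 of the stalk (503), Rpl41 (443) and Rps14 (435). The level per kb depends on the annotated length, which for Rps20 is 3706 bases and places it at 18.8. Large-subunit genes, stalk included, and small-subunit genes kept a nearly fixed ratio of summed counts, between 1.41 and 1.47 in every library. Within groups, a member's coefficient of variation had a median of 8.02%.

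At the low end, 6 core genes had from 1.23 (Rps12) to 30.04 (Rps25) CPM per kb, and for 3 of them a near-identical copy held most of the counts. Rps12 had 0.61 CPM where Rps12-ps3 had 94.1, Rpl5 had 16.5 where Gm15500 had 255, and Rpl12 had 10.6 where Gm10275 had 146. All 31-base words of these copies' transcripts are also in the member's. With the copy added, the levels became 192, 133 and 126 CPM per kb. Copies with above 10000 counts were found for 6 more members, among them Rpl27a (78.8 CPM, with 87.4 in Gm7536) and Rpl10 (294, with 85.0 in Rpl10-ps3). Only 12.9% of member values above 0 were whole numbers, within a tolerance of 1e-09, against 44.0% of all values above 0. Estimated counts are not whole where reads match several genes. Levels and fold changes of these members are therefore uncertain. Rps25 and Rps20 were low without a copy above 10000 counts.

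**Figure D1:**
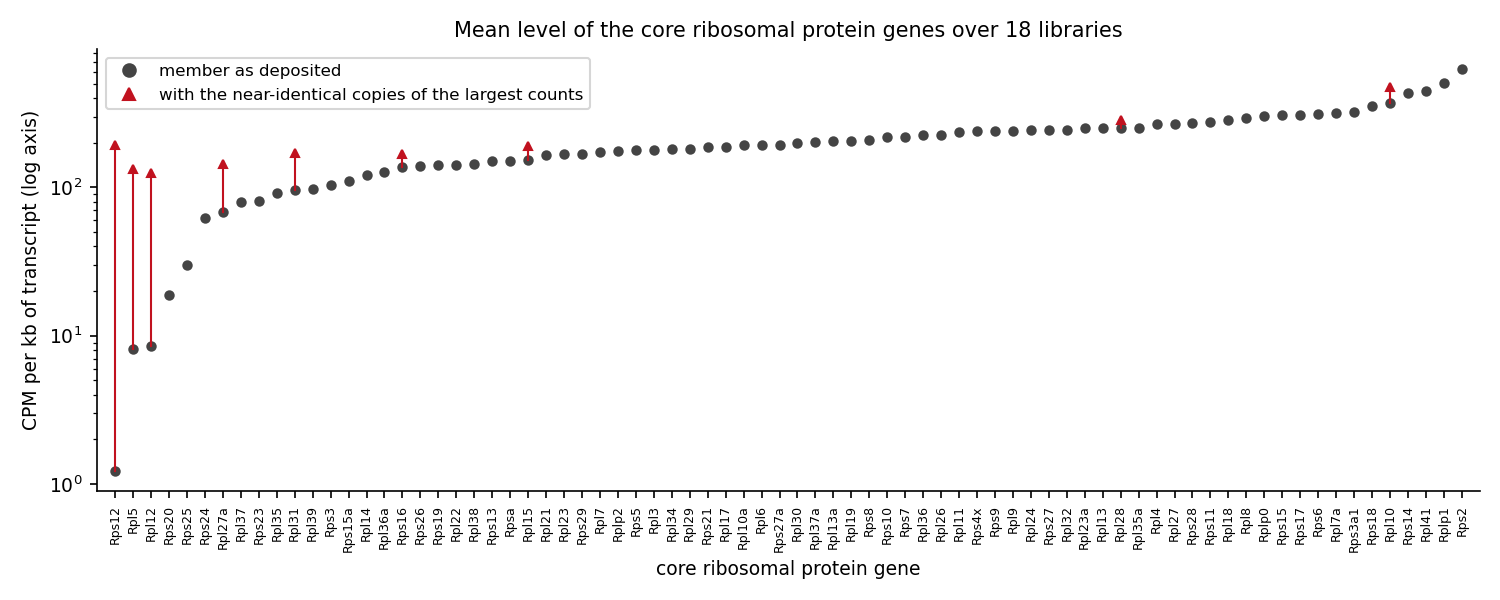
Mean level of 76 of the 77 core ribosomal protein genes over the 18 libraries, in CPM per kb of transcript on a log axis, ordered by level. Dots are the members as deposited and triangles add the near-identical copies with above 10000 counts, which bring Rps12, Rpl5 and Rpl12 to between 126 and 192.

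As a module and with TMM scaling, the core genes were on average highest in hepatocytes of mice without food for 24 h and lowest in fed PP hepatocytes. Each library's level is given here as the median over the 77 core genes of their deviation from their own mean over all libraries, in log2 CPM. In fed mice it was -0.12, -0.07 and 0.04 in the PC libraries and -0.14, -0.09 and -0.29 in the PP libraries. After 8 h it was -0.08, 0.03 and 0.03 in PC, and -0.09, -0.08 and -0.08 in PP. After 24 h it was -0.09, 0.14 and 0.28 in PC, and 0.06, 0.31 and 0.28 in PP. In PP all 3 libraries of 24 h were above all those of 0 h and 8 h, while in PC replicate 1 of 24 h lay among the fed libraries. The summed level of all members was 10753 ± 825 CPM in fed PP hepatocytes and 13789 ± 1129 after 24 h (mean ± SD, n = 3). In PC it was 11613 ± 598 and 12969 ± 1585. As a plain share of the library's counts, without TMM, the order of the groups differed: the members took 1.22% ± 0.00261 in fed PC, 1.27% ± 0.0339 in 8 h PC and 1.34% ± 0.150 in 24 h PC (mean ± SD, n = 3). In PP the share was 1.09% ± 0.0763 in fed, 1.05% ± 0.0960 at 8 h, the lowest of the 6 groups, and 1.26% ± 0.107 at 24 h, below 8 h PC.

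**Figure D2:**
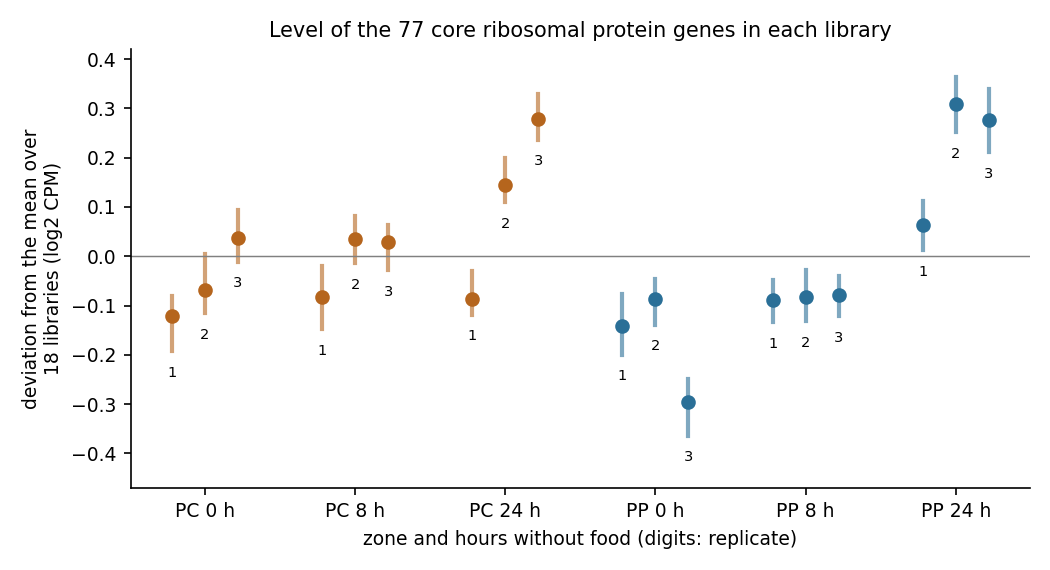
Level of the core ribosomal protein genes in each library: the dot is the median over 77 genes of the deviation from the gene's mean over 18 libraries (log2 CPM), the bar spans the quartiles over genes, and digits give the replicate. The 3 PP libraries of 24 h (0.06 to 0.31) lie above the 3 of 0 h (-0.29 to -0.09), and the PC library of 24 h, replicate 1, lies at -0.09.

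In PP hepatocytes, most ribosomal protein mRNAs were higher after 24 h without food, by a similar small amount. Of the 86 members tested, 59 were called higher and 1 lower at an edgeR adjusted p under 0.05, where 9.59% of the 12477 genes tested were called higher and 19.6% in either direction. All 59 were core genes: 36 of 43 of the large subunit, 2 of 3 of the stalk and 21 of 31 of the small subunit. All 77 core genes had a log2 fold change above 0, with a median of 0.39 (1.31-fold) and 90% of them between 0.24 and 0.53, while the standard error (SE) of a gene was typically 0.11. The median was 0.38 over the 86 members and -0.0016 over all genes. In 71 members every PP library of 24 h was above every one of 0 h, and in 1 every library was below, where 36.9% of all genes showed no overlap in either direction. The called genes ranged from 0.30 (Rpl29) to 0.84 (Rpl22) on the log2 scale.

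Rpl22, an RNA-binding protein of the large subunit that is known to be dispensable for translation in most cells, changed most. Its level was 53.5, 44.2 and 43.1 CPM in fed PP libraries, 66.8, 64.5 and 58.3 after 8 h, and 77.2, 87.5 and 87.8 after 24 h. The 3 states did not overlap in PP, and the level rose 1.79-fold over 24 h (log2 0.84 ± 0.13 SE, edgeR adjusted p = 0.000294). Rps27, a zinc-binding protein of the small subunit, was at 67.1, 79.2 and 67.7 CPM in fed PP libraries and at 93.7, 121 and 107 after 24 h. These groups did not overlap either, with a fold change of 0.59 ± 0.12 on the log2 scale (edgeR adjusted p = 0.00313). Rps14, at the platform of the small subunit, went from 222, 223 and 210.4 to 276, 346 and 356 CPM, with a log2 fold change of 0.58 ± 0.11 (edgeR adjusted p = 0.00174). Rps19, which is mutated in Diamond-Blackfan anaemia, went from 75.6, 75.6 and 65.6 to 99.4, 109 and 104 CPM, again without overlap (0.53 ± 0.09, edgeR adjusted p = 0.00102). Rpl38, a small protein of the large subunit, followed at 0.56 ± 0.15 (edgeR adjusted p = 0.0143).

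Not every core gene was called. The 18 that were not had adjusted p from 0.0568 to 0.823. The most abundant of all, Rps2, was at 534, 656 and 492 CPM in fed and 610.3, 665 and 622 in 24 h PP libraries (log2 0.17 ± 0.13), with overlap between the groups. Rpl3, a protein beside the peptidyl transferase centre, was at 263, 281 and 237 CPM in fed and 253, 286 and 271 after 24 h, so that its libraries overlapped and its log2 fold change was 0.05 ± 0.11. Others among the 18 were Rpsa (the laminin receptor precursor), Rps26, Rpl4, Rplp1 and 3 with few reads or large copies (Rps12, Rpl12 and Rpl10). Ordered by mean level, the median log2 fold change was 0.43 in the lowest 25 core genes, 0.41 in the middle 26 and 0.37 in the highest 26. Across the 77 core genes the fold change had a Spearman rho of -0.25 with mean level and -0.27 with transcript length, over the same libraries and with genes that are not independent.

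Near-identical copies were also added to their member before the fit, an alternative chosen after the data were seen. Rps12 was then called higher in PP with a log2 fold change of 0.45 ± 0.13 (edgeR adjusted p = 0.0215), Rpl10 with 0.34 ± 0.11 and Rpl28 with 0.33. In PC, Rpl28 was called with its copy (0.31 ± 0.10, edgeR adjusted p = 0.0361) and not as deposited (0.28 ± 0.10, edgeR adjusted p = 0.0588), and Rpl5 with its copy was also called from 8 to 24 h in PP (0.39 ± 0.11, edgeR adjusted p = 0.0423). For Rpl5, which binds 5S ribosomal RNA together with Rpl11, the PP value was 0.46 ± 0.14 as deposited and 0.48 ± 0.11 with its copy, and the PC value -0.11 ± 0.14 and 0.21 ± 0.11, so its sign in PC turned. Rpl12 with its copy was at 0.30 ± 0.12 in PP and not called (edgeR adjusted p = 0.10).

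The count for PP rested in part on single libraries and on the scaling. Members called higher were 22 without replicate 3 of fed PP, 19 without replicate 2 and 27 without replicate 3 of 24 h PP. The shares of all genes in these 3 runs are not given here. With library totals in place of TMM, 9 members were called higher. That scaling moved the median of all genes to -0.14 and the members' median to 0.24. It called 542 of all genes higher, where TMM called 1196. Replicate 1 of 24 h PP was the lowest of its group in 81 of 86 members, and replicate 3 of fed PP in 72. Markers of other cells varied between the same libraries. The 6 sinusoidal endothelial markers summed to 11.6 to 13.4 CPM in fed PP and to 4.02, 15.8 and 16.9 in replicates 1, 2 and 3 of 24 h PP, and the 7 Kupffer cell and leukocyte markers to 3.76 to 6.25 and to 1.79, 6.98 and 15.1. The 5 stellate markers gave 4.13 to 6.21 and 2.35, 9.64 and 4.64, and all of these markers had a count somewhere. The 4 hepatocyte markers summed to 117827 to 137413 in fed PP. In replicates 1, 2 and 3 of 24 h PP they summed to 129278, 153509 and 183355, so replicate 1 was lowest there too. In PP at 8 h, replicate 3 had the highest endothelial sum of all libraries (30.7, against 3.96 and 7.07) with the members at -0.08, as in its 2 companions. The part of the other cells in these levels was not tested, and 1 library cannot decide it.

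**Figure D3:**
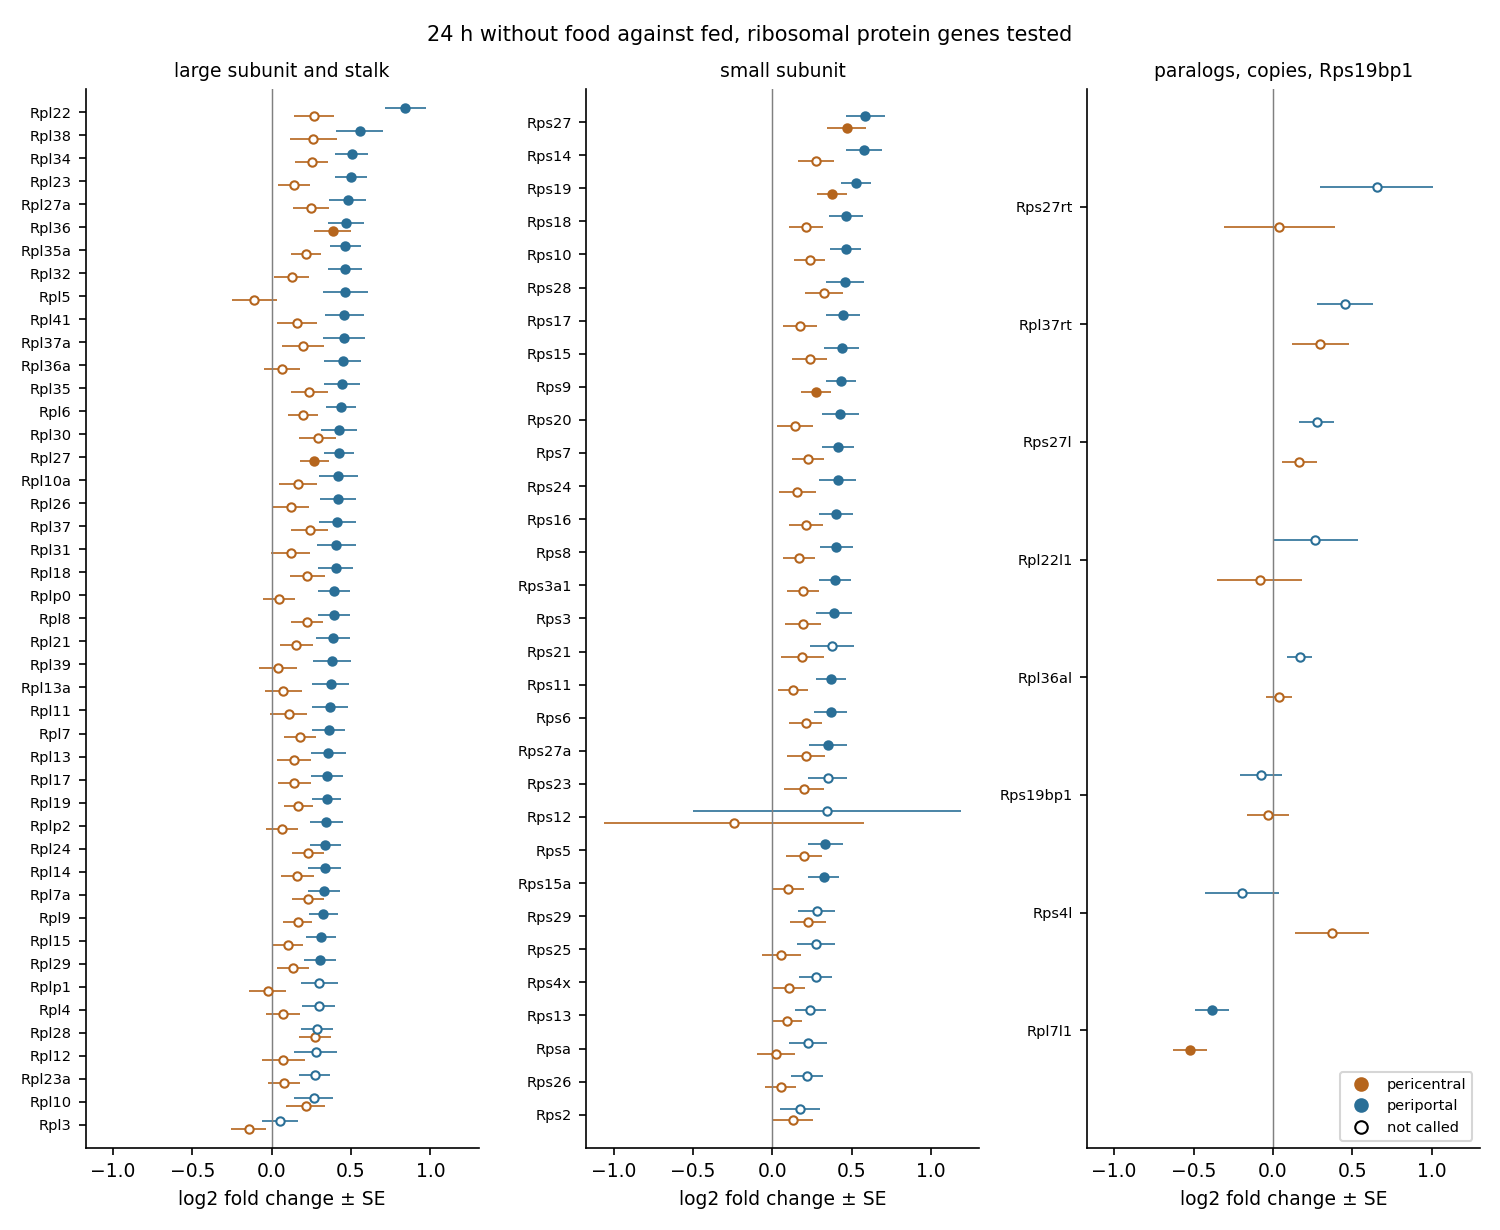
Log2 fold change ± SE between 24 h without food and fed for 84 of the 86 members tested, in PC and PP hepatocytes, with filled dots for an edgeR adjusted p under 0.05 (Rps3a3, with under 1 CPM, and 1 core gene are left out). In PP all core genes shown lie above 0 and 59 are called, and Rpl7l1 is called lower in both zones.

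In PC hepatocytes the same comparison gave fewer calls. Between 24 h and 0 h, 5 members were called higher and 2 lower, where 10.8% of all genes tested were called higher and 11.1% lower. The 5 were Rps27 (log2 0.47 ± 0.12, edgeR adjusted p = 0.0117), Rpl36 (0.38 ± 0.11), Rps19 (0.38 ± 0.09), Rps9 (0.28 ± 0.10) and Rpl27 (0.27 ± 0.09), and each was also called higher in PP. Rps27 was at 68.8, 78.2 and 84.7 CPM in fed PC and at 91.2, 107 and 122 after 24 h. Rps19 was at 77.1, 84.2 and 88.3 CPM in fed PC and at 98.7, 109 and 117 after 24 h. In neither gene did the groups overlap, though the PC call of Rps27 was lost without replicate 1 of fed or replicate 3 of 24 h. The core genes had a median log2 fold change of 0.18 (1.13-fold), with 73 of 77 above 0, and 20 members had an unadjusted p under 0.05. The share of all genes at that unadjusted p is not given here. It is at least the 10.8% higher and 11.1% lower together, so the 20 members are not shown to exceed it.

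Replicate 1 of 24 h PC carried the lowest level of its group in 80 of 86 members. Without it, 15 members were called higher and 2 lower, while leaving out replicate 1 or 2 of fed PC, or replicate 2 or 3 of 24 h PC, left 1 or 2 called higher and 2 lower. The shares of all genes in these runs are not given here. That library also had the lowest marker sums of its group for endothelial cells (4.73 CPM, against 8.09 and 10.3), for Kupffer cells and leukocytes (1.56, against 4.15 and 3.76) and for stellate cells (1.72, against 4.30 and 4.94). It was lowest too for the hepatocyte markers (65271, against 97115 and 85740) and the cholangiocyte markers (13.9, against 16.4 and 17.2). For the red cell markers it was highest (51.8, against 38.1 and 44.3). The part of any of these cells in the members' level was not tested.

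The change over 24 h was not shown to differ between zones for any member. The zone difference (change in PP minus change in PC) had 0 of 86 members called by edgeR, DESeq2 or limma-voom, and in edgeR 7 had an unadjusted p under 0.05. Of all genes, 0.0160% were called. Its median over the members was 0.20 on the log2 scale, with 84 above 0, and -0.0052 over all genes. Rpl22 had the smallest p among the members, with a difference of 0.58 ± 0.18 (edgeR adjusted p = 0.436). Rpl22 was at 62.8, 69.8 and 68.4 CPM in fed PC and at 66.8, 85.0 and 89.96 after 24 h, so that fed and 24 h libraries overlapped in PC. No tool called a member for the zone difference from 0 to 8 h or from 8 to 24 h either (0 by edgeR, DESeq2 and limma-voom). In edgeR, 1 and 5 members had an unadjusted p under 0.05, and 0.00% of all genes were called in each.

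**Figure D4:**
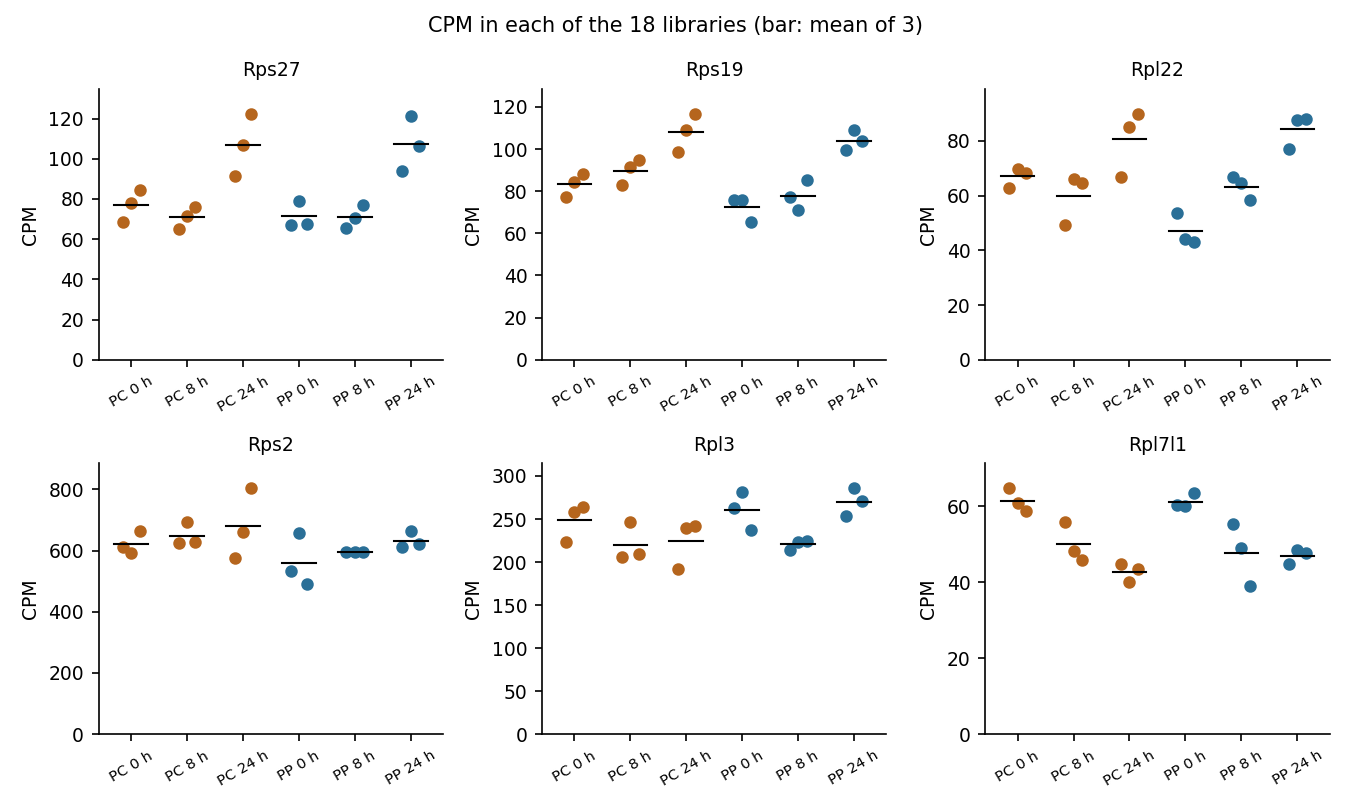
CPM of Rps27, Rps19, Rpl22, Rps2, Rpl3 and Rpl7l1 in each of the 18 libraries by zone and hours without food, with a bar at the mean of 3. Rps27 and Rps19 are higher at 24 h in both zones, Rpl22 in PP goes from 43.1 to 53.5 in fed to 77.2 to 87.8 at 24 h, and Rpl7l1 is lower at 24 h in both zones.

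After 8 h without food the module was close to its fed level. In PC, 0 members were called between 8 h and 0 h by edgeR, DESeq2 or limma-voom, 1 had an unadjusted p under 0.05 (Rpl7l1, log2 -0.30 ± 0.11, edgeR adjusted p = 0.0817), and the core median was 0.04, where 13.8% of all genes were called. Without replicate 1 of 8 h PC, or replicate 3 of 8 h PP, 1 was called. In PP, 1 member was called higher and 2 lower, where 7.56% and 6.85% of all genes were, and the core median was 0.09. Leaving out any 1 of the 3 fed PP libraries, or replicate 1 or 2 of 8 h PP, left 0 or 1 called in all. With library totals in place of TMM the median over all members in PP was -0.04, with all genes at -0.11. Rpl22 was the 1 called higher (log2 0.43 ± 0.13, edgeR adjusted p = 0.0326), without overlap between its fed and 8 h libraries in PP, and the call was lost with library totals and without replicate 2 or 3 of fed or replicate 1 or 2 of 8 h. Rpl7l1 and Rps3a3 were called lower. The groups of 8 h differ from the others in clock hour as well as in hours without food, and these cannot be told apart.

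Between 8 h and 24 h in PP, 12 members were called higher and 0 lower, where 3.22% and 4.24% of all genes were, and the core median was 0.30. These were Rps27 (log2 0.59 ± 0.12, edgeR adjusted p = 0.00897), Rps14 (0.45), Rps19 (0.42), Rpl36, Rpl32, Rps6, Rpl35a, Rpl34, Rps10, Rps3a1, Rpl24 and Rpl6, and all 12 were also called between 0 h and 24 h. The count was 0 without replicate 2 of 24 h PP and 24 without replicate 1. It was 1 to 3 on leaving out 1 of the 8 h PP libraries or replicate 3 of 24 h PP, 20 without replicate 1 of 24 h PC, and 38 by DESeq2. The shares of all genes in these alternatives are not given here, so their counts cannot be set against the 3.22%. In PC, Rps27 (0.59 ± 0.12, edgeR adjusted p = 0.00688) and Rpl22 (0.43 ± 0.13, edgeR adjusted p = 0.0441) were called higher and 0 lower by edgeR (DESeq2 3 and 0, limma-voom 2 and 1), where 5.20% and 4.51% of all genes were, and the core median was 0.14. The count of 2 became 5 without replicate 1 of 24 h PC, 3 without replicate 3 of 8 h PP, and 1 on leaving out any other library except replicate 1 of fed PP. The PC call of Rpl22 was lost in 18 of the alternative runs. These were library totals, no filter, only the groups compared, and most runs with a library left out. The 8 h levels of Rps27 in PP, 65.8, 70.5 and 76.8 CPM, overlapped with the fed ones.

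Between zones, few ribosomal protein mRNAs were called. In fed mice 1 member, Rpl22, was called lower in PP and 0 higher, where 4.13% and 3.89% of all genes were. Its fed PP libraries (43.1 to 53.5 CPM) were all below the fed PC libraries (62.8 to 69.8), with a log2 difference of -0.51 ± 0.13 (edgeR adjusted p = 0.0184). The call was lost on leaving out replicate 2 or 3 of either fed group, and 2 members were called on leaving out any 1 of the 8 h PP libraries. Over the core genes the median difference was -0.11 in the fed state, -0.07 after 8 h and 0.08 after 24 h. At 8 h, Rps3a3 was the 1 called lower and 0 were higher, where 3.42% and 3.72% of all genes were. At 24 h, 0 members were called and 4 had an unadjusted p under 0.05, where 4.17% of all genes were called, and DESeq2 and limma-voom also called 0. Without replicate 1 of 24 h PP, 1 was called. With library totals the members' median at 24 h was -0.09, with all genes at -0.17.

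Averaged over the 3 states, edgeR called 3 members lower in PP and 0 higher (DESeq2 5 and 1, limma-voom 3 and 1), where 9.96% and 10.3% of all genes were, and 5 were called on leaving out replicate 1 of any 1 of the 3 PC groups. Rplp1, 1 of the acidic proteins of the stalk that recruits translation factors, was at 253, 273 and 280.0 CPM in fed PC and 212, 232 and 185 in fed PP. Its averaged difference was -0.22 ± 0.07 (edgeR adjusted p = 0.0266), and at 24 h its zones overlapped (229, 256 and 306 CPM in PC; 240.4, 266 and 268 in PP). Rpl29 was at -0.18 ± 0.06 (edgeR adjusted p = 0.0320), and the other was Rps3a3. The call of Rplp1 was lost without replicate 3 of 24 h PC or replicate 1 of 24 h PP, and that of Rpl29 without any 1 of 7 libraries of all 6 groups, these included. Rps6, the substrate of S6 kinase, had the opposite sign and was not called at 0.18 ± 0.06 (edgeR adjusted p = 0.05001). With library totals, where the median of all genes moved to -0.15, 41 members were called lower over the states and 15 at 8 h. Of all genes, that scaling called 2913 lower over the states and 1088 at 8 h. With TMM, 1243 and 427 of the 12477 genes tested were called lower.

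Of the 6 paralogs tested, 0 were called higher and 1 lower in PP between 0 h and 24 h by edgeR, where 9.59% of all genes were called higher and 19.6% in either direction. Rpl7l1, a relative of RPL7 known from the early steps of large-subunit assembly, was at 64.8, 60.8 and 58.6 CPM in fed PC and fell to 44.9, 40.0 and 43.3 after 24 h. On the log2 scale this was -0.52 ± 0.11 (edgeR adjusted p = 0.00260), with no overlap. In PP it fell from 60.3, 60.0 and 63.4 to 44.8, 48.3 and 47.6 CPM (-0.38 ± 0.11, edgeR adjusted p = 0.0202), also with no overlap, though the PP call was lost without replicate 1 or 3 of either group. Its partner Rpl7 was called higher in PP (0.36 ± 0.10, edgeR adjusted p = 0.0206), a call lost with library totals in place of TMM and without replicate 1 or 3 of fed or replicate 2 or 3 of 24 h. Rpl36al, which encodes a protein close to that of Rpl36a, had 155 CPM on average and a log2 fold change in PP of 0.17 ± 0.08, where Rpl36a was called at 0.45 ± 0.12 (edgeR adjusted p = 0.0118), though not with library totals, nor without replicate 3 of fed or replicate 2 of 24 h. Rps27l, a p53-induced relative of Rps27, was at 0.28 ± 0.11 and Rpl22l1, at 5.16 CPM on average, at 0.27 ± 0.27, and neither was called. Rps4l was at -0.20 ± 0.23 and its partner Rps4x at 0.27 ± 0.10. Rps27rt, with 4.29 CPM, was at 0.65 ± 0.35. Differences between a paralog and its partner were not tested.

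Rps19bp1 had a log2 fold change at 24 h of -0.07 ± 0.13 in PP and -0.03 ± 0.13 in PC and was not called. Rps3a3, a copy of Rps3a1 with at most 0.91 CPM, was at 0.69, 0.91 and 0.82 CPM in fed PC and at 0.16, 0.07 and 0.10 after 24 h. It was called lower there and in 3 other comparisons, but at so few counts, and with reads that may also match Rps3a1 (317 CPM on average), its level is uncertain. Rpl37rt was not called in any comparison.

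Many other mRNAs known to carry a TOP element were also higher after 24 h. Of 18 such genes, edgeR called 14 higher and 0 lower in PP between 0 h and 24 h (median log2 fold change 0.36), where 9.59% of all genes were called higher, and 8 and 0 in PC (median 0.29), where 10.8% were. Eif4b, a cofactor of the cap-binding helicase, had the largest change, with 1.02 ± 0.10 in PP and 1.06 ± 0.10 in PC. Eef2, the elongation factor of translocation, was called at 0.50 and 0.54, and Pabpc1, the poly(A)-binding protein, at 0.36 and 0.32. Fau encodes a small-subunit protein made as a fusion with a ubiquitin-like protein, and its symbol lies outside the rule. It was called in PC at 0.35 (edgeR adjusted p = 0.0308) but not in PP at 0.31 (edgeR adjusted p = 0.0535). Rack1, a scaffold on the small subunit, and Tpt1 were called in PP (0.36 and 0.40) and not in PC (0.13 and 0.06), and their zone difference was not called (edgeR adjusted p = 0.734 and 0.649). Eef1a1, the elongation factor that brings transfer RNA, was at 0.34 in each zone, with edgeR adjusted p of 0.0476 in PP and 0.0424 in PC, and both calls were lost on leaving out most single libraries. With library totals, the calls of Rack1, Tpt1, Pabpc1, Eef1a1 and Fau were lost, in each zone where they were made, as was that of Eef2 in PP. The PP calls of Rack1 and Tpt1 were lost without replicate 3 of fed PP or replicate 2 or 3 of 24 h PP, that of Tpt1 also without replicate 1 of fed PP, and that of Pabpc1 without replicate 3 of fed PP or replicate 1 of 24 h PP. The PC call of Fau was lost without replicate 1 or 2 of fed PC or replicate 2 or 3 of 24 h PC, and that of Pabpc1 without replicate 2 or 3 of fed PC or replicate 3 of 24 h PC.

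Of 30 genes for the assembly of ribosomes, 8 were called lower and 1 higher in PP at 8 h (median -0.26), where 6.85% and 7.56% of all genes were, and 5 and 1 in PC (median -0.23), where 13.8% of all genes were called in either direction. At 24 h, 4 were called lower and 4 higher in PP, where 19.6% of all genes were called, and 5 and 3 in PC, where 11.1% and 10.8% were, so these shares lay near those of all genes. Mybbp1a, a nucleolar protein, was at -0.80 ± 0.12 in PC and -0.76 ± 0.12 in PP at 8 h, and Bysl, needed for the small subunit, was called lower at 24 h (-0.96 in PC, -0.75 in PP). Npm1, a nucleolar chaperone, was called higher at 24 h (0.56 in PP, 0.69 in PC), as was Ubtf, the RNA polymerase I factor (0.39 and 0.54). The 77 mitochondrial ribosomal proteins, which build the separate ribosome of the mitochondrion, had 1 called higher and 3 lower in PP at 24 h, where 9.59% of all genes were called higher and 19.6% in either direction, with a median of 0.01. Mrps27 had the smallest adjusted p of them (-0.90 ± 0.15 in PP, -0.76 ± 0.15 in PC).

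Of 18 genes of mTORC1 and cap-dependent translation, edgeR called 4 higher and 0 lower in PP at 24 h, where 9.59% of all genes were called higher, and 4 and 2 in PC, where 10.8% and 11.1% were. The count of 2 lower in PC is at the share of all genes. Sesn2, which inhibits mTORC1 when leucine is low, was at 2.03 ± 0.20 in PP and 1.91 ± 0.21 in PC. Ddit4, another inhibitor of the pathway, was called in PP (2.49 ± 0.66, edgeR adjusted p = 0.0185) and was at 1.19 ± 0.65 in PC, and its PP call was lost without replicate 2 or 3 of fed or replicate 3 of 24 h. Tsc1, of the complex that holds the pathway back, was called at 0.47 and 0.65, and Eif4ebp1, the repressor of the cap-binding protein, at 0.56 and 0.52. These genes are only part of the list of 18, and Tsc1 was named after its values were seen. The 2 called lower in PC are not named here. No direction for the inhibitors of the list as a set can be read from the genes named. Myc was not called (-0.75 ± 0.75 in PP). Of the 13 ribosomal protein pseudogenes tested, out of 239 in the table, edgeR called 3 higher in PP at 24 h and 0 lower, where 9.59% of all genes were called higher.

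**Figure D5:**
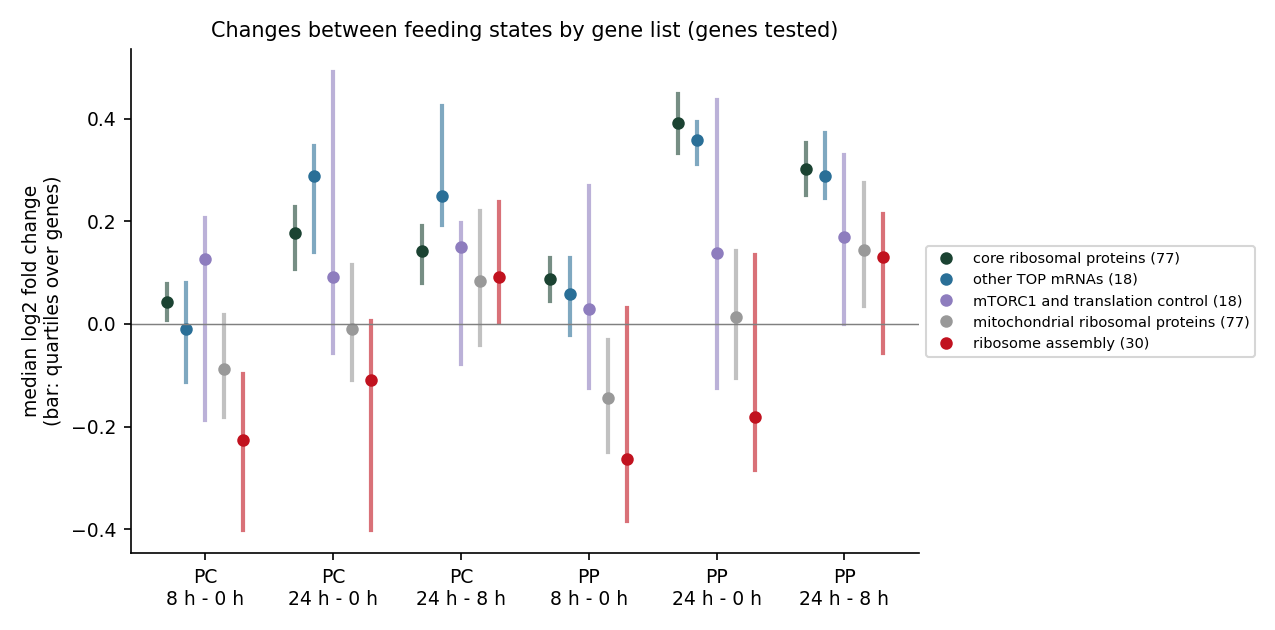
Median log2 fold change (dot) and quartiles over genes (bar) of the core ribosomal proteins and 4 other gene lists for each pair of feeding states in PC and PP. At 24 h against 0 h in PP the core genes are at 0.39, other TOP mRNAs at 0.36, mitochondrial ribosomal proteins at 0.01 and assembly genes at -0.18.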

How the data were processed

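RNA from zone-isolated hepatocytes was sequenced (RNeasy with TRIzol, NEBNext Ultra, per the labels' protocols). The deposited table holds estimated counts, 1 column per library. The submitters' processing notes list kallisto 0.46.0 and the mm10 build, and further settings are not given in the sources used here. The estimated counts were rounded and tested with edgeR 4.0.16 (robust quasi-likelihood test, TMM, filterByExpr) under R 4.3.3. The 18 libraries and 6 groups entered 1 model, from which 13 contrasts were taken. Benjamini-Hochberg adjustment ran over 12477 genes, with calls at an adjusted p under 0.05. The SE is the log2 fold change over the square root of F. The fit was checked on simulated counts. DESeq2 1.42.0, limma-voom (limma 3.58.1), 5 other scalings, 2 other filters, a fit of only the groups compared, added pseudogenes or copies, a replicate block and leaving out each library were alternatives. Copies share at least 80% of 31-base words with a member's transcripts (GENCODE, GRCm38, the assembly of mm10). Transcript length is that of the shortest principal transcript. Named were the 6 most and 3 least abundant members, for each contrast the 3 with the largest change in each direction among those called (or the smallest p), tested paralogs with partners, members left out by the filter, and a few listed genes. Rpl38, Rps9, Rpl27, Rpl3, Rpsa, Rps26, Rpl41, Bysl, Npm1, Ubtf, Tsc1 and the other members named singly outside this rule, and the members whose start sites are printed, were chosen after their values were seen. The members and lists were chosen with earlier results of these data known. Some genes are counted in the totals and not reported by name here.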

Additional observations from a re-analysis of the deposited data

How the results depend on the processing

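The 24 h rise of the members in PP kept its direction under every alternative run, while its count of calls moved with the scaling and with single libraries. Scaling by library totals, without TMM, gave 2 members called between zones in fed mice, 15 at 8 h and 41 over the states. In PC it gave 4 between 0 h and 24 h and 1 between 8 h and 24 h. In PP it gave 10 and 3 in the same comparisons. Of all genes, in the same order, this scaling called 880, 1359 and 3676 between zones. It called 2114 and 774 in PC, and 2196 and 525 in PP. The members' medians under it were -0.28 between zones at 8 h, -0.093 at 24 h and -0.18 over the states, -0.042 from 0 to 8 h in PP, 0.24 from 0 to 24 h in PP and -0.11 for the zone difference from 0 to 8 h. Relative to the median of all genes, which it moved to -0.20, -0.17, -0.15, -0.11 and -0.14 in the first 5 of these, the members lay at -0.08, 0.08, -0.03, 0.07 and 0.38. It also moved the share of higher genes among all calls to 24.7% from 0 to 24 h in PP.

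Between zones in fed mice, DESeq2 called 3 members, and limma-voom, the replicate block and a fit of only the groups compared called 2 each. At 8 h, 0 were called with a filter at a mean of 1 CPM or with only the groups compared. Over the states, DESeq2 called 6, and scaling without the 20 most abundant genes, scaling without mitochondrially encoded genes and the replicate block called 5 each. With only the groups compared, the counts were 1 from 8 to 24 h in PC, 0 from 0 to 8 h in PP and 1 from 8 to 24 h in PP. Without the filter they were 1 from 8 to 24 h in PC and 3 in PP, where DESeq2 called 38. For the alternatives in this paragraph the shares of all genes are not given here.

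The replicate block left 60 calls from 0 to 24 h in PP. Same-numbered libraries had deviations that correlated at -0.12 to 0.21 over 45 pairs, with a median of 0.03 and 7 above 0.1. Over the 90 pairs with different numbers the median was -0.02, with 3 above 0.1. Of the 18 libraries, 10 correlated best with a library of their own number, where 45 pairs shared a number and 90 did not. This count was not tested, and the 18 outcomes are not independent. Pairing was taken to need every same-numbered pair above 0.1. Weak pairing would not meet so strict a rule, so it does not decide whether numbers are shared, and the labels do not give it.

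The members' share of counts without mitochondrially encoded genes was 1.34% in fed PC, 1.19% in fed PP, 1.38% in 8 h PC, 1.15% in 8 h PP, 1.45% in 24 h PC and 1.38% in 24 h PP. Without the 20 most abundant genes it was 1.63%, 1.53%, 1.70%, 1.52%, 1.76% and 1.82% in the same groups and order. With pseudogenes it was 1.26% in fed PC and 1.31% in 8 h PC, and with near-identical copies, added after the data were seen, 1.31% and 1.36%.

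Leaving out 1 library at a time gave 0 to 2 members called between zones in fed mice, 1 at 8 h in every case, 0 to 1 at 24 h and 2 to 5 over the states. In PC the counts ran from 0 to 1 (0 to 8 h), 3 to 17 (0 to 24 h) and 1 to 5 (8 to 24 h), and in PP from 0 to 3, 20 to 63 and 0 to 24. For the 3 zone differences the count was 0 in every case. The shares of all genes called with a library left out are not given here. The members' median from 0 to 24 h ran from 0.31 to 0.45 in PP and from 0.09 to 0.26 in PC. With 3 libraries in a group the typical SE of a core gene was 0.11, beside a core median of 0.18 from 0 to 24 h in PC.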
